A study of Mus musculus with 19 samples.

Results

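The genes described here are 30 mouse genes of meiotic prophase and recombination, and the question is where SPEN-antibody peaks lay relative to them in testicular cells and spermatocytes. They were chosen by name: a peak belonged to a member when the authors' annotation gave that gene as its nearest one, at up to 5 kb and up to 50 kb from the transcription start site (TSS). All 30 were among the 21031 protein-coding genes that could hold a peak. Of 80795 peaks in 19 lists, 35 were assigned to a member, 24 of them within 50 kb and 9 within 5 kb.

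In meiotic prophase, homologous chromosomes are cut by programmed DNA breaks, paired, and held together by the synaptonemal complex while the breaks are repaired, some as crossovers. Lateral axes built on meiosis-specific cohesin carry the loops of chromatin, and transverse filaments join the axes of the homologues. Most of these genes are transcribed in germ cells and are silent in other tissues. SPEN binds RNA and brings transcriptional corepressors to chromatin.

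The cells came from adult male FVB/N mice of 10 to 16 weeks, with no transgene or deletion named in the labels. Mixed testicular cells were precipitated in 3 libraries with an antibody that recognises the SPEN N-terminus: untreated at 32 °C, 38 °C for 15 min, and 38 °C for 30 min with 2 h of recovery. An antibody to an internal region was used on testicular cells in 9 libraries, namely the untreated state and, at both 38 °C and 43 °C, 15 min, 30 min, and 30 min with 2 h or 4 h of recovery. The same antibody was used on cells enriched in spermatocytes (up to 80%) in 4 libraries: untreated, 43 °C for 30 min, and the same heat shock with 2 h or 4 h of recovery. The 3 background lists came from testicular IgG pooled over treatments and from the inputs of both cell preparations. Each library pooled several precipitations, so every condition had 1 library, no value below has a replicate error, and every comparison is between libraries.

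Peaks that shared at least 1 base with an IgG or input peak were set aside, and the rest are called peaks outside background. Lists differed greatly in length. The internal antibody gave 27370 peaks outside background in untreated testicular cells and 8164 in spermatocytes at 4 h of recovery, whereas the other 14 SPEN libraries had 333 to 1442. The read depth is unknown, so a long list cannot be told apart from deeper sequencing. The Y chromosome held 20.4% to 32.7% of all peaks in testicular lists other than the untreated internal one (2.46%) and 0.721% to 3.66% in spermatocyte lists. Peak lists hold no expression, so the cell types could not be checked against their markers. Per the file headers, the N-terminal lists were annotated in another folder than the rest.

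Some starts that carried a peak can be read directly. The sequences just before the start of 4 members are shown because a peak assigned to the member reached into them. These members were Sycp1, Sycp3 and Brdt in untreated testicular cells and Tex12 in spermatocytes at 4 h of recovery. Peaks at the starts of Rnf212, Stag3 and Tex14 that were assigned to neighbours are described below, without sequence. The sequences shown run 5′ to 3′ on the gene's strand, from RefSeq (GRCm38.p6, the assembly of mm10). Each ends at the last base before the gene and has in capitals the bases under the peak. Sycp1 is chr3:102936101-102936350 on the minus strand, Sycp3 is chr10:88459337-88459586 on the plus strand, Tex12 is chr9:50561269-50561518 on the minus strand and Brdt is chr5:107330944-107331115 on the plus strand.
Sycp1: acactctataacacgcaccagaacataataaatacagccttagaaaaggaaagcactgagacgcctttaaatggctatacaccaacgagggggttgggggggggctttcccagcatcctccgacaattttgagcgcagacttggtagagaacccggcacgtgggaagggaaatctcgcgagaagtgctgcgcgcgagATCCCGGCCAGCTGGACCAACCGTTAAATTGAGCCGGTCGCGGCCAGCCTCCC
Sycp3: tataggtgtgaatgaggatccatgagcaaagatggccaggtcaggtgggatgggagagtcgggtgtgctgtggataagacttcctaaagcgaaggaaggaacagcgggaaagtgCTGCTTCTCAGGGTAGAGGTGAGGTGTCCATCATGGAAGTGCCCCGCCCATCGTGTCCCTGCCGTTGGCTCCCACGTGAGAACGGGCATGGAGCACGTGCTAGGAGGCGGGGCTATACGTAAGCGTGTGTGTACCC
Tex12: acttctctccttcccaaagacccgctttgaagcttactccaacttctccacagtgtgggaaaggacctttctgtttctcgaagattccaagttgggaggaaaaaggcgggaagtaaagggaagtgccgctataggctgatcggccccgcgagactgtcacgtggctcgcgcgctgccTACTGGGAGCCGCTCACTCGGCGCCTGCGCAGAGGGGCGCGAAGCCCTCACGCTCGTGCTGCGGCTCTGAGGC
Brdt: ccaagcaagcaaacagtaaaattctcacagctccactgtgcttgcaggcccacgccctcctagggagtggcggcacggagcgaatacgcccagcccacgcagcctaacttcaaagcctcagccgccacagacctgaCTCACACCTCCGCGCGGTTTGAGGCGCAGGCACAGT
The peak covered the last 53 bases before Sycp1, 136 before Sycp3, 73 before Tex12 and 36 before the Brdt gene span.

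Of the 30 members, 12 held a peak outside background within 50 kb in some SPEN library, where 43.4% of all protein-coding genes did, and 7 within 5 kb, where 22.6% did. All of these peaks were in the 2 longest lists. Untreated testicular cells had 6 members with a peak within 5 kb (Sycp1, Sycp3, Syce3, Mei4, Prdm9 and Brdt), or 20.0% with an exact 95% interval of 7.71 to 38.6%, where 20.2% of all protein-coding genes held one. Within 50 kb they had 11 members (36.7%, interval 19.9 to 56.1%), against 37.9% of all genes. Spermatocytes at 4 h of recovery had 2 members within 5 kb (Sycp1 and Tex12; 6.67%, 0.818 to 22.1%) against 3.48% of all genes. Within 50 kb they had 4 members (13.3%, 3.76 to 30.7%) against 13.0%. In both libraries the members' shares were near those of all genes, with wide intervals. The intervals cover counting error only.

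In the other 14 SPEN libraries, no member held a peak outside background within 50 kb, which allows a share of up to 10% (3 counts of 30). In those 14 together, 1.11% of all genes were called within 5 kb and 5.12% within 50 kb. A count of 0 among 30 is near these shares. In the 3 background lists, 1 member (Hfm1) held a peak that no other background list had within 50 kb, where 2.13% of all genes did, and 0 members held one within 5 kb, where 0.442% did.

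**Figure D1:**
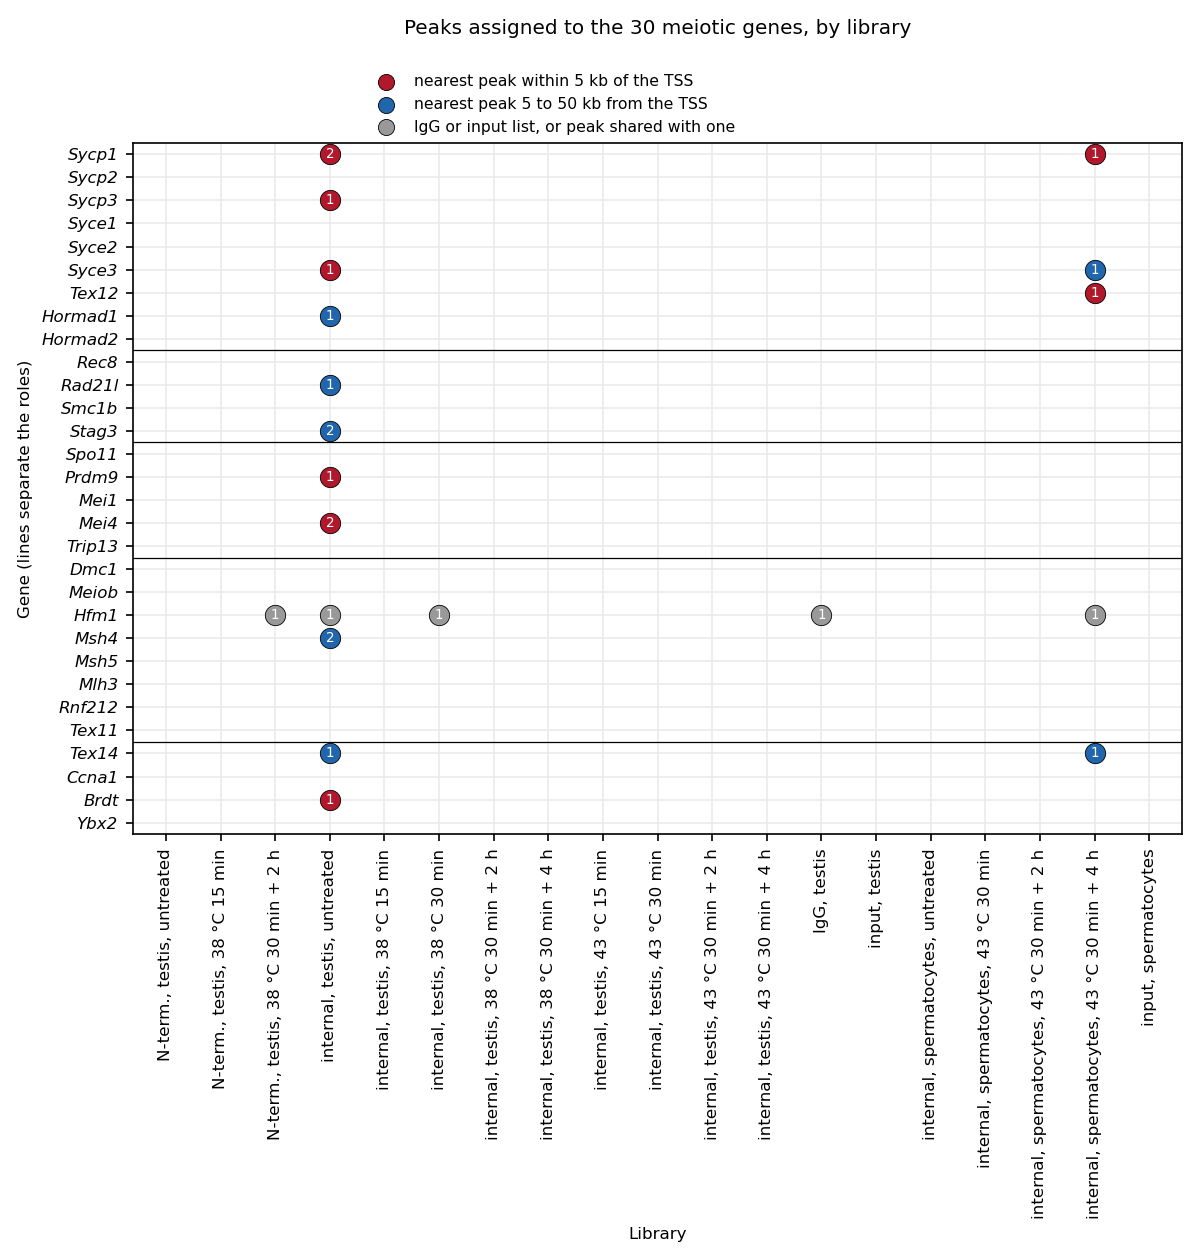
Peaks assigned to each of the 30 genes (rows, grouped by role) in each of the 19 libraries (columns). The number in a dot counts the gene's peaks within 50 kb, red marks a nearest peak within 5 kb, blue one at 5 to 50 kb, and grey an IgG peak or a peak shared with IgG; the coloured dots stand in 2 columns, untreated testicular cells and spermatocytes at 4 h of recovery.

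**Figure D2:**
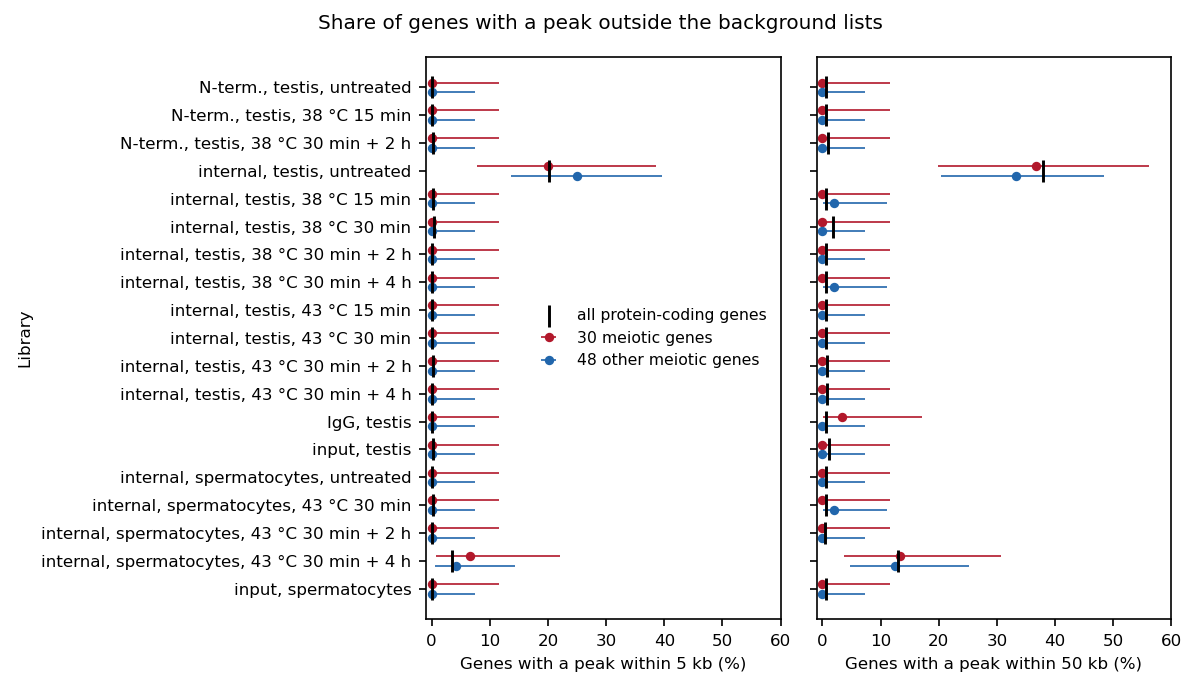
Percentage of genes with a peak outside background within 5 kb (left) and 50 kb (right) of the TSS in each library, for the 30 meiotic genes, 48 other meiotic genes and all protein-coding genes. Dots carry exact 95% binomial intervals; in untreated testicular cells the 30 genes stand at 20.0% and 36.7%, beside 20.2% and 37.9% of all genes.

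Of the 9 genes of the synaptonemal complex and the chromosome axis, 4 had an assigned peak within 5 kb and 5 within 50 kb over all SPEN libraries, beside the 22.6% and 43.4% of all genes. Sycp1 encodes the transverse filament protein that bridges the paired axes. In untreated testicular cells it had 2 peaks at its start, separated by 6 bases: 1 over the 5′ UTR in exon 1 (chromosome 3, 102935844 to 102936153, 102 bp from the TSS, score 122.68) and 1 in intron 1 over an annotated CpG island (102935533 to 102935837, 415 bp, score 161.78). The score is the authors' value, which began at 50 in every list; these peaks ranked 3532 and 2032 among the 29315 of the library. Spermatocytes at 4 h of recovery had 1 peak there, centred 486 bp from the TSS in exon 2 (102935518 to 102935711, score 91.36, rank 2060 of 9707). It shared 179 bases with the intron 1 peak of untreated testicular cells. Among peaks assigned to a member within 50 kb, this was the only place that 2 SPEN libraries held in common outside background. The share of such places over all genes is not given, so the sharing cannot be called particular to Sycp1 or to the members.

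Sycp3, a structural protein of the lateral axis, had a promoter peak in untreated testicular cells (chromosome 10, 88459451 to 88459787, 32 bp from the TSS, score 94.16, rank 6375). No other library had a peak assigned to it. Tex12 encodes a protein of the central element, the part of the complex midway between the axes. Its promoter peak was the reverse case, present in spermatocytes at 4 h of recovery (chromosome 9, 50561194 to 50561341, 1 bp from the TSS, score 51.86, rank 8351 of 9707) and lacking in untreated testicular cells. The peak also lay in the RefSeq span of Il18, which overlaps Tex12 there. With a score so close to the lower limit of the lists, the Tex12 peak was among the weaker ones of its library.

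Syce3, another central element gene, had a weak peak in intron 1 in both long lists, at different positions. In untreated testicular cells it lay 4736 bp from the TSS (chromosome 15, 89405455 to 89405600, score 50.3), just inside the 5 kb limit, and in spermatocytes 10381 bp from it (89399794 to 89399971, score 55.52), the next one outside that limit. Hormad1 encodes an axis protein that marks unsynapsed chromosomes. Its only peak (chromosome 3, 95544869 to 95545042, -14722 bp, score 52.16) lay in an RMER10A retroviral repeat within Ctss, the cathepsin S gene, and only its distance ties it to Hormad1. Sycp2, Syce1, Syce2 and Hormad2, which encode another axis protein, 2 central element proteins and a relative of HORMAD1, had no assigned peak in any of the 19 lists.

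**Figure D3:**
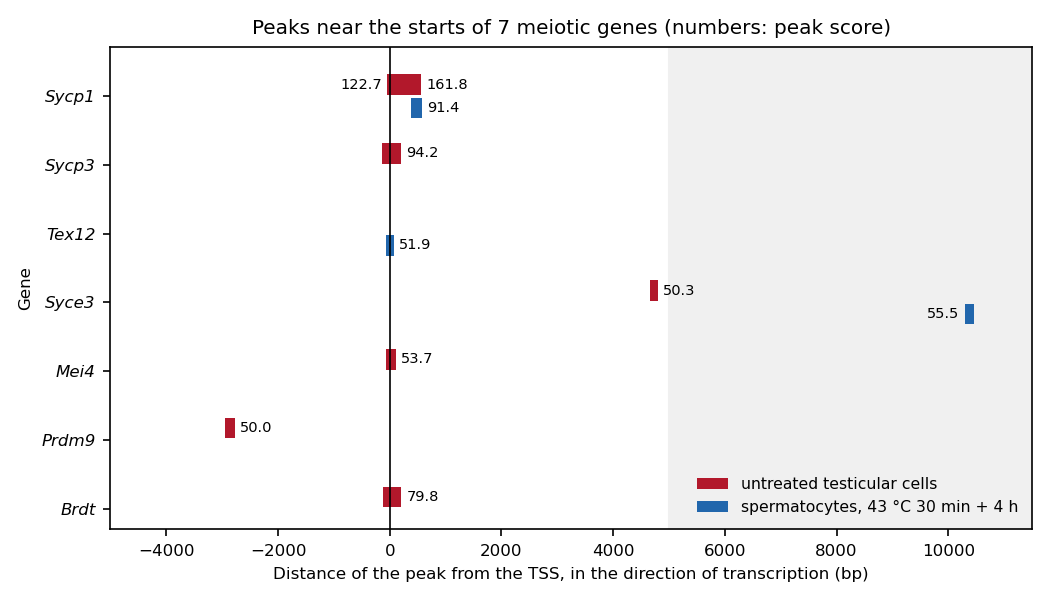
Peaks outside background near the starts of the 7 genes with a peak within 5 kb, drawn to scale along the distance from the TSS in bp, with the peak score beside each bar; red is untreated testicular cells, blue spermatocytes at 4 h of recovery, and the grey area lies beyond 5 kb. Of the 7 genes, Sycp1 alone has a bar of both libraries at its start.

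Cohesin rings hold sister chromatids together, and meiosis uses its own versions of some subunits, encoded by the 4 genes Rec8, Rad21l, Smc1b and Stag3. Of the 4, in untreated testicular cells, 0 had an assigned peak within 5 kb, against 20.2% of all genes, and 2 had one within 50 kb, against 37.9%. Counts over so few genes are near these shares. The Rad21l peak (chromosome 2, 151683985 to 151684159, -15539 bp, score 51.41) was in an MTC-int repeat and in the RefSeq span of Tmem74bos. The start of Tmem74bos was nearer, at 2061 bp. Stag3 had 2 peaks downstream of the gene on chromosome 5, in an RLTR45 repeat at 37733 bp (138318163 to 138318321, score 50.16) and in an RMER1B repeat at 43461 bp (138323856 to 138324084, score 68.12). The RefSeq start of Pvrig was nearer to both, at 23689 and 17961 bp. Rec8 and Smc1b had no assigned peak.

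Break formation was represented by Spo11, the transesterase that makes the cuts; Prdm9, the histone methyltransferase with a zinc finger array that chooses where; Mei1 and Mei4, which are needed for the cuts; and Trip13, an ATPase that removes HORMAD proteins from synapsed axes. Mei4 had a promoter peak in untreated testicular cells (chromosome 9, 81863671 to 81863861, 22 bp from the TSS, score 53.67) that began 1 base past the start, and an intron 2 peak in an IAPEz retroviral element at 47407 bp (81911063 to 81911239, score 63.12), the one nearest to the 50 kb limit from inside. Prdm9 had a peak upstream of its start (chromosome 17, 15566095 to 15566275, -2862 bp, score 50.01) in the span of Gm6686. It ranked 29303 of 29315, at the very bottom of the list. Spo11, Mei1 and Trip13 had no assigned peak.

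Of the 8 genes of strand exchange and crossover formation, 1 (Msh4) had assigned peaks outside background within 50 kb, in untreated testicular cells, where 37.9% of all genes were called. Msh4 encodes a partner of MSH5 in the complex that stabilises crossover intermediates. In untreated testicular cells it had an intron 4 peak in an ORR1A2 repeat at 11370 bp (chromosome 3, 153893447 to 153893595, score 60.22) and an intron 7 peak in a simple repeat at 20592 bp (153884211 to 153884387, score 71.48). Neither was called in another library. Dmc1, the meiotic strand exchange protein; Meiob, a single-strand DNA-binding protein; Msh5 and Mlh3 of the mismatch repair family; Rnf212, a crossover factor; and Tex11, an X-linked synapsis and crossover gene, had no assigned peak, although Rnf212 and Tex11 held peaks that were assigned to neighbours and are given below.

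Hfm1, a helicase gene needed for crossovers, was the member called in most libraries and the one shared with background. A peak in intron 9, about 22.1 kb from the TSS on chromosome 5, was in the IgG list (106903749 to 106903906, score 52.34). The same position was called in untreated testicular cells (106903664 to 106903926) with score 173.59. Its score was 100.88 in spermatocytes at 4 h of recovery, 64.6 after 30 min at 38 °C with the internal antibody, and 52.11 at 2 h of recovery from 38 °C with the N-terminal antibody. Among positions assigned to a member within 50 kb, it was the only one found with the N-terminal antibody or in a heat-shocked testicular library. Its highest score was in the longest list. Scores rank peaks only within a list, so these values show neither a change between conditions nor its absence.

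Of the germ cell regulators, Brdt encodes a testis-specific bromodomain protein that reads acetylated histones. It had a promoter peak in untreated testicular cells (chromosome 5, 107331080 to 107331403, 47 bp from the TSS, score 79.75, rank 9028). Tex14 encodes a protein of the bridges between germ cells. It had an intron 2 peak in each long list on chromosome 11, at 40233 bp in untreated testicular cells (87467707 to 87467941, score 80.37) and at 15678 bp in spermatocytes (87443183 to 87443356, score 55.59). The RefSeq start of LOC115487798 was nearer to both, at 26359 and 1804 bp. The Tex14 distances are the authors' and count from a start inside the gene. The RefSeq start of Tex14 was farther upstream, at 87405065, and from there the untreated peak would lie beyond 50 kb. The spermatocyte peak lay over Rnu3b1, a U3 small nuclear RNA gene inside the intron. U3 has near-identical copies elsewhere in the genome, and how reads were placed there was not tested. Ccna1, a meiotic cyclin gene, and Ybx2, a germ cell RNA-binding protein gene, had no assigned peak.

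Some member genes held peaks that the authors' annotation gave to a neighbour. The most prominent was the last exon of Prdm9, exon 10, which encodes the zinc finger array. Both long lists had a peak there, assigned to Pdcd2: chromosome 17, 15544131 to 15544646 with score 203.44 in the untreated testicular list, and 15544375 to 15544594 with score 74.91 at 4 h of recovery in spermatocytes. The zinc finger array is made of near-identical repeat units, and how reads were placed there was not tested. In untreated testicular cells 3 more members had a peak near a RefSeq start. Rnf212 had a pair over a CpG island (chromosome 5, 108774792 to 108775019, score 68.42, and 108775078 to 108775231, score 51.69) at its RefSeq start, given to 1700047L14Rik, whose start was 11063 and 11312 bp away. Stag3 had one assigned to Gpc2, -255 bp from the Gpc2 TSS (138280113 to 138280271, score 54.44). Tex14 had one that was annotated as its own promoter but given to Rad51c, a recombination gene 210 bp away (chromosome 11, 87404642 to 87404846, score 72.05).

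Counting a peak within 5 kb of any RefSeq start, a rule added after these values were seen, gave 9 of the 27 members with a listed start in untreated testicular cells, where 23.3% of all genes were called, and 2 of 27 in spermatocytes at 4 h of recovery, against 4.31%. When a peak anywhere in the gene or 5 kb to either side was counted, 12 members were called in untreated testicular cells against 37.5% of all genes. The same rule gave 6 members in spermatocytes at 4 h of recovery against 12.7%, and 1 (Prdm9, score 50.88 after 30 min at 43 °C) in the other 14 SPEN libraries, where 5.0% of all genes were called. The members' shares by the gene span were 40% (22.7 to 59.4%) and 20.0% (7.71 to 38.6%) in the long lists, and by any start 33.3% (16.5 to 54.0%) and 7.41% (0.91 to 24.3%). Each was above the share of all genes, which lay within its interval. Over any SPEN library, 13 members were called by the 5 kb span, against 42.0% of all genes. With 50 kb to either side the members numbered 24 in untreated testicular cells, 11 in spermatocytes at 4 h of recovery and 25 over any SPEN library, where 71.7%, 32.3% and 78.1% of all genes were called.

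Peaks beyond 50 kb, outside the counts above, lay deep in introns of longer genes or past a gene's end. Mei4 had 2 neighbouring peaks in an L1Md_T element, a young LINE-1 retrotransposon, in intron 3 (chromosome 9, 81936321 to 81936544, score 97.2, and 81936582 to 81936834, score 86.99) in untreated testicular cells. Spermatocytes at 4 h of recovery had a peak of score 50.9 within the second of them, sharing 151 bases. Sycp1 had peaks at 55324 bp (score 75.71) and, in another L1Md_T element, at 69561 bp (score 51.04). A further L1Md_T peak in Sycp1 intron 30 was given to Tshb (102832731 to 102833100, score 195.21), and 2 in intron 25 of Tex11 on the X chromosome to Dlg3 (scores 72.2 and 112.91). The Tex14 peak at 55452 bp (score 108.26) was in an RLTRETN retroviral element. Stag3 had the peak nearest to the 50 kb limit from outside, at 54318 bp (score 63.39), in an IAP element past the end of the gene. The RefSeq start of Pvrig was 7103 bp from this peak.

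**Figure D4:**
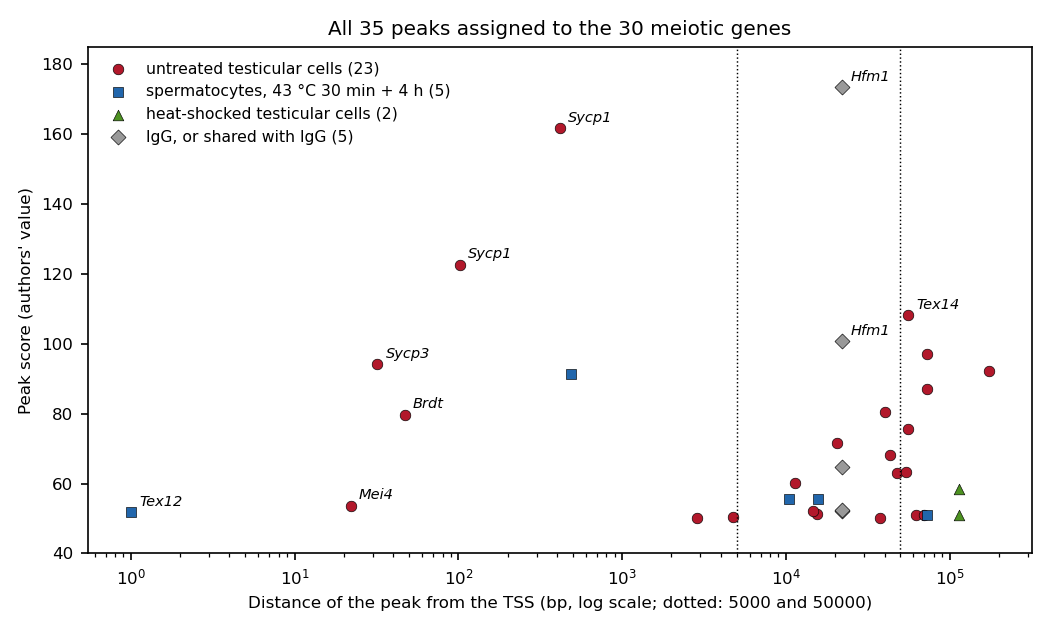
Peak score (the authors' value) against the distance from the TSS in bp on a log scale for all 35 assigned peaks, coloured by library; grey diamonds are the Hfm1 position shared with IgG. Near the starts, the scores run from 50.01 at Prdm9 to 161.78 at Sycp1, and the highest value, 173.59, is at the Hfm1 position.

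Peaks close to the members' starts were outside repeats, as were most peaks close to the starts of all genes. The members' peaks farther away were mostly in repeats. In untreated testicular cells 0 of the 7 peaks within 5 kb lay in an annotated repeat, against 8.09% of the 5577 peaks within 5 kb of any gene. A count of 0 among 7 is near that share. Of the 15 peaks within 50 kb 7 did (46.7%), against 37.6% over all genes. Both shares include the peaks within 5 kb, and the share over all genes from 5 to 50 kb is not given. The scores of the 7 peaks within 5 kb ran from 50.01 to 161.78 with a median of 79.8, where all peaks within 5 kb had a median of 64.6. With so few peaks these medians describe the members and were not tested.

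Across states, untreated testicular cells stood against all heat-shocked ones with the internal antibody, with 6 members called within 5 kb against 0 in each of the 8 heat-shocked libraries. In those 8 libraries 0.0999% to 0.414% of all genes were called, so few genes of any kind were called. In spermatocytes the order was the reverse: 0 members in the untreated library, 0 after 30 min at 43 °C, 0 at 2 h of recovery and 2 at 4 h, with 0.0999%, 0.166%, 0.0856% and 3.48% of all genes called. The N-terminal antibody gave 0 members in the untreated and both heat-shocked libraries, with 0.0856% to 0.143% of all genes called. Testicular cells and spermatocytes in the same state had 6 and 0 members when untreated, 0 and 0 at 30 min of 43 °C and at 2 h of recovery, and 0 and 2 at 4 h. These numbers followed the lengths of the lists, which were 27370 and 389 peaks outside background in the untreated pair and 971 and 8164 at 4 h.

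The 48 other meiotic genes gave a similar picture in untreated testicular cells, with 12 called within 5 kb (25.0%, 13.6 to 39.6%) against the same 20.2% of all genes. Within 50 kb, 16 of the 48 genes were called (33.3%, 20.4 to 48.4%) against 37.9% of all genes. All 13 of their peaks within 5 kb lay within 1 kb of a TSS, as did 77.0% of such peaks over all genes. The highest scores were at Fkbp6, an immunophilin gene needed for male meiosis (103.49), Wapl, the cohesin release factor (95.21), Atr, the checkpoint kinase (78.48), and Hsf2bp, which helps bring recombinases to breaks (77.3). Others were Gm960 (67.4), the partner of SPO11; Terb1 (61.67) and Spdya (60.18), which act at telomeres on the nuclear envelope; and Meioc (59.81) and Ythdc2 (50.77), which control meiotic entry. Exo1 (56.41), a nuclease gene, Spata22 (51.9), whose protein binds MEIOB, and the chromatin remodeller gene Hells (51.86) completed them. Spermatocytes at 4 h of recovery had 2 of the 48 within 5 kb (4.17%, 0.509 to 14.3%), near the 3.48% of all genes. The 2 were the cohesin protector gene Sgo2a (71.78) and the cohesin subunit gene Stag1 (62.58). Neither was called in untreated testicular cells, where 20.2% of all genes were. The share of all genes called in both libraries is not given.

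RefSeq promoter sequences were found for 27 members. CpG content is given as observed over expected, the number of CpG pairs relative to that expected from the C and G bases in the 250 bases upstream. Its median was 0.67 in the 27 members and 0.56 over 16853 protein-coding genes. It was 0.60 in the 6 members with an assigned peak within 5 kb in untreated testicular cells and 0.74 in the 21 without, and over all genes 0.73 with and 0.48 without. Counting any RefSeq start, it was 0.67 in 9 members with a peak and 0.70 in 18 without, and over all genes 0.74 and 0.47. The members' difference thus shrank when neighbours' peaks were counted. Of all genes at 0.6 or more, 28.9% held a peak (interval 27.9 to 29.9%), against 12.7% (12.0 to 13.4%) of those under 0.6, and the members gave 3 of 17 and 3 of 10. The members Smc1b (1.21), Hfm1 (1.07) and Stag3 (1.05) had the highest values. None of them had an assigned peak outside background within 5 kb, but Stag3 held the peak given to Gpc2 near its CpG-rich start.

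**Figure D5:**
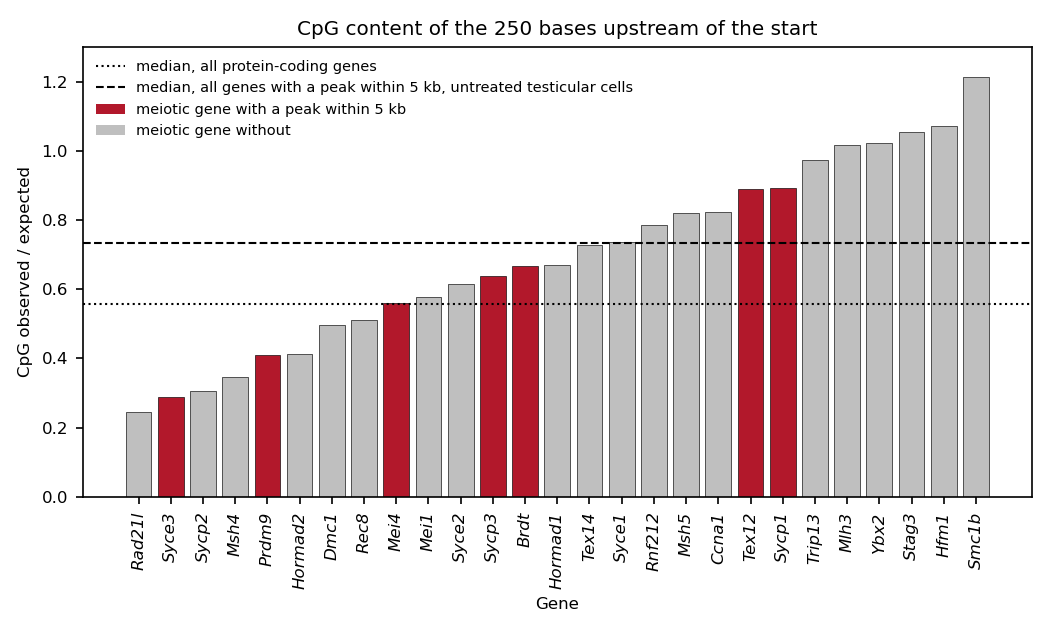
CpG observed over expected in the 250 bases upstream of the start for the 27 members with a RefSeq promoter sequence, ordered by value; red bars had a peak within 5 kb in a long list. The dotted line is the median of all protein-coding genes (0.56) and the dashed line that of all genes with a peak within 5 kb in untreated testicular cells (0.73).

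The 250 upstream bases were searched on both strands for GAANNTTC, a pair of heat shock element units; TGACGTCA, the cAMP response element; TAACNG, a MYB core; and CCAAT, the NF-Y box. In Sycp1, TAACNG occurred once, in reverse, at base 218 of the sequence shown and so under the peak; 17.7% of all promoters held it. In Tex12, GAANNTTC occurred once, at base 80 and outside the peak; 6.19% of all promoters held it. No 2 of these motifs overlapped there. Of the 27 members, 2 held GAANNTTC (Tex12 and Prdm9), 0 TGACGTCA (2.06% of all promoters), 7 TAACNG and 10 CCAAT (36.6% of all promoters).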

How the data were processed

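Chromatin was sheared to 100 to 500 bp before precipitation, per the labels' protocols. The build mm10 and the tools Bowtie2, SAMtools and HOMER are named in the submitters' processing notes, without versions. Each of the 19 libraries has a peak list and a HOMER-annotated copy, whose positions and scores were checked to be the same. Peak names of the MACS form stand in each deposited list; the sources used here name no calling threshold or control. Each score is the authors' deposited value and was used only to rank and filter peaks within a list. The distance to the TSS and the gene are the authors' deposited annotation.

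Members and gene lists were chosen with earlier results of these data known. Groups came from the sample titles. Genes were matched to the RefSeq table of GRCm38.p6, 30 of 30 members by symbol and 44 and 4 of the other meiotic genes by symbol and synonym. The HOMER distance was within 1 bp of a RefSeq start for 82.7% of 4009 peaks within 1000 bp. Genes tested were 21031 protein-coding genes with a curated transcript. Named were all members with a peak, by role, and other meiotic genes with a peak within 5 kb. For each gene the first start in the promoter table was used for composition. With 1 library per condition no test was made; shares carry exact Clopper-Pearson 95% intervals. Counting was tested on simulated peaks. Analyses used Python 3.11.15, pandas 2.3.3, NumPy 2.4.6 and SciPy 1.17.1, and matplotlib 3.10.9 drew the figures. The alternatives tried were a score minimum, other handling of background, list length, repeats, distance and gene assignment.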

Additional observations from a re-analysis of the deposited data

How the results depend on the processing

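Of 59 alternative counts, 33 stayed within 1.5 times the reported count, among them all that widened the background by 1000 bp. With a score of at least 100, members within 5 kb and within 50 kb numbered 1 and 1 in untreated testicular cells. They numbered 0 and 0 in spermatocytes at 4 h of recovery, and 1 and 1 over all SPEN libraries. Left were 1 other meiotic gene and 0 shared member loci. Over all genes, this score kept 14.2% of peaks within 5 kb and 13.8% within 50 kb in untreated testicular cells. In spermatocytes at 4 h of recovery it kept 7.91% and 8.52%. Taking each library's top 1000 peaks outside background by score, the members numbered 0 and 0, 1 and 1, and 1 and 1 in the same order. The other meiotic genes numbered 0. The ranks given above are instead among all peaks of a list, background included. The 2 longest lists held 29315 and 9707 peaks. Counting the RefSeq gene span widened by 5 kb gave 12, 6 and 13 members, against 37.5%, 12.7% and 42.0% of all genes. Widened by 50 kb, it gave 24, 11 and 25 (against 71.7%, 32.3% and 78.1% of all genes). With 5 kb, 24 of the 48 other meiotic genes were called in untreated testicular cells, against the same 37.5% of all genes. Leaving out peaks in repeats left 7 members within 50 kb in untreated testicular cells. Over all genes, 37.6% of that library's peaks within 50 kb lay in repeats. The share of all genes called is not given for the score, top 1000 and repeat alternatives. Without the 2 longest SPEN lists no member remained within 5 kb (0) or within 50 kb (0). With background peaks kept, 2 member loci were shared by SPEN libraries instead of 1, the second being Hfm1. The cause of these changes was not tested. Unknown depth limits every comparison between lists. No paired analysis was possible because each condition had 1 library and the labels give no replicate numbers.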

Other observations

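Outside the counts of assigned peaks, positions flanking 2 members recurred in several lists, short ones among them. The counts by the gene span with 50 kb to either side take them in. These positions were picked because they recurred. Of all genes, 78.1% had a peak in the gene or 50 kb to either side in some SPEN library. The share of all genes with a recurring position there is not given. Beyond the 3′ end of Msh4, 5165 bp outside the gene and assigned to Asb17os, a site on chromosome 3 (153851704 to 153851976) was in 5 SPEN libraries with scores of 54.24 to 96.27: untreated spermatocytes and those at 2 h of recovery from 43 °C, both heat-shocked N-terminal libraries, and testicular cells after 15 min at 38 °C with the internal antibody. The site lay 542 to 630 bp from the TSS of Asb17os. The long list of untreated testicular cells did not have it. On the other side of Msh4, 15679 bp away and assigned to Rabggtb, a site (153921817 to 153922206) was in 4 libraries and had its highest score, 212.92, in untreated testicular cells. A site 23462 bp from Stag3 on chromosome 5 (138248551 to 138249052), assigned to Lamtor4, was in 4 libraries with scores of 50.58 to 87.44, including untreated testicular cells and untreated spermatocytes. In untreated testicular cells, the Rabggtb and Lamtor4 sites lay -9045 and -6644 bp from the TSS of those genes. Only peaks outside background were searched for such positions, so all 3 lay outside the IgG and input lists by that rule.

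Hfm1 had the only position assigned to a member that was found in heat-shocked testicular cells but missing from the untreated list. It lay 113758 bp from the TSS, past the end of the gene and in the span of Gm33327, and was called after 30 min at 43 °C (chromosome 5, 106812056 to 106812208, score 50.93) and at 2 h of recovery from 38 °C (106812064 to 106812217, score 58.32), in both cases with the internal antibody. These peaks shared 145 bases.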
